A study of Mus musculus with 8 samples.

Results

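The genes described here encode 9 chemokines of the CXC and CX3C families, Cxcl1, Cxcl2, Cxcl5, Cxcl9, Cxcl10, Cxcl12, Cxcl14, Cxcl16 and Cx3cl1. They were taken by gene symbol from a deposited RNA sequencing table of 22520 genes, and all 9 symbols were found. The table held 8 libraries of mouse microvascular endothelial cells (ECs), 4 labelled Wildtype (WT) and 4 labelled LRP1 KO, and the comparison asked which transcripts differ in ECs that lack the endocytic receptor LRP1. All mice were C57BL/6 at postnatal day 14, and the labels give each library as a mix of heart, liver and lung cells, whereas the study describes liver ECs apart from heart and lung ECs, so the organs behind each library are uncertain. Per the study's methods, LRP1 KO mice were Lrp1 f/f and carried Cdh5-CreER, an inducible Cre recombinase driven by the promoter of the endothelial cadherin Cdh5, whereas WT were littermates with the same floxed Lrp1 alleles and no Cre. By that design the deletion was aimed at the endothelium, and which cells of a library lost Lrp1 was not tested. The cells were pulled out with beads that carried an antibody to PECAM-1. The sources used here do not say whether each library came from 1 animal, so the p-values measure the spread between these libraries.

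Values are quantile-normalized FPKM, read fragments divided by transcript length and by the fragments mapped, a unit inferred from the values. They correct for transcript length, so that levels can be compared between genes, but quantile normalization removed the sequencing depth. Genes with at least 1 FPKM in at least 4 libraries were tested with limma on log2(FPKM + 1), and 11389 genes passed. Fold changes below are LRP1 KO against WT on that scale, which understates the change of low genes. Lrp1 itself fell from 120.1 ± 16 to 4.79 ± 2.20 FPKM (SD, n = 4 each, limma adjusted p 8.89e-05). On the leading principal component (60.8% of the variance), WT libraries lay between -24.1 and -12.9 and LRP1 KO libraries 1 to 3 between 17.2 and 27.3, whereas LRP1 KO library 4 lay between the groups at 0.102. Results that rest on that library are given with and without it.

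The endothelial label was checked against marker genes. Pecam1, the antigen of the selection, ran from 6.8 to 8.76 FPKM in WT, while the collagen gene Col1a2 ran from 726 to 973 FPKM. Summed over 12 fibroblast markers, WT libraries held 2772 to 4061 FPKM, against 187 to 205 FPKM over 18 endothelial markers. In LRP1 KO the fibroblast sum was 2482 to 3700 FPKM, and the endothelial sum was 690, 423, 503 and 193 FPKM in libraries 1 to 4. The libraries labelled as ECs therefore carried more fibroblast than endothelial marker transcript in every sample, and only LRP1 KO libraries 1 to 3 stood clear of WT in endothelial markers. Lrp1 was 3.45, 5.20, 2.79 and 7.72 FPKM in LRP1 KO libraries 1 to 4, against 103 to 140 FPKM in WT. It was thus low also where the fibroblast sum far exceeded the endothelial sum, library 4 included, and the reason was not tested. The sum over 18 macrophage markers was 59.7 to 104 FPKM in WT against 250 to 608 FPKM in LRP1 KO, with no overlap. In such bulk samples, fewer cells of a type and less RNA per cell cannot be told apart.

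CXC chemokines are small secreted proteins that bind heparan sulfate on the vessel wall and call leukocytes through G protein-coupled receptors. Cxcl1, Cxcl2 and Cxcl5 act on Cxcr2 of neutrophils, Cxcl9 and Cxcl10 are induced by interferon and act on Cxcr3 of T and NK cells, and Cxcl12 acts on Cxcr4 and is scavenged by Ackr3. Cxcl16 and Cx3cl1 are made as membrane-anchored proteins with a chemokine head on a mucin stalk, hold cells that carry Cxcr6 or Cx3cr1, and are released by metalloproteases.

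Of the 9 chemokines, 5 passed the filter on low values, and each of these had at least 1 FPKM in all 8 libraries. Only Cxcl16 differed between the groups at an adjusted p under 0.05. It was lower in LRP1 KO, as were 7.31% of all tested genes, while 6.27% of all tested genes and 0 of the 5 chemokines were higher. In either direction 1 of 5 was called against 13.6% of all tested genes, so the count of 1 is near what the background gives. At an unadjusted p under 0.05, 2 of the 5 passed, Cxcl12 and Cxcl16, against 33.7% of all tested genes. None of the 5 passed the adjusted p together with a 2-fold change, as 1.62% of all tested genes did. The median log2 fold change of the 5 was -0.06, beside -0.01 over all tested genes.

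**Figure D1:**
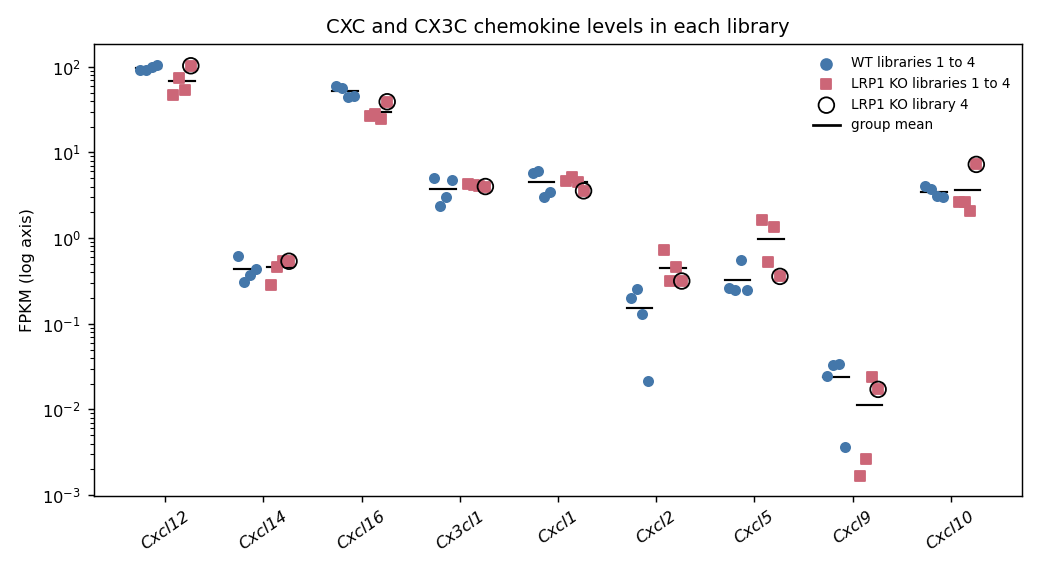
FPKM of the 9 chemokines in each library on a log axis, with circles for WT, squares for LRP1 KO, a ring around LRP1 KO library 4 and a bar at each group mean (n = 4 each). Cxcl12 and Cxcl16 lie far above the other 7 in every library, and Cxcl16 separates the groups without overlap.

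Cxcl12 and Cxcl16 made up most of the summed chemokine transcript. Together they gave 90.4% to 93.4% of the FPKM of the 9 genes in WT libraries and 83.7% to 89.8% in LRP1 KO libraries. The sum of the 9 was 166, 161, 154 and 163 FPKM in WT libraries 1 to 4 against 87.8, 115, 90.9 and 158 FPKM in LRP1 KO libraries 1 to 4, so that LRP1 KO library 4 fell inside the WT range and the other 3 fell below it. By mean level in WT the order was Cxcl12, Cxcl16, Cxcl1, Cx3cl1, Cxcl10, Cxcl14, Cxcl5, Cxcl2 and Cxcl9. The values of Cxcl1, Cx3cl1 and Cxcl10 overlapped those of their neighbours among these 3, as did each neighbouring pair from Cxcl14 down to Cxcl9. In LRP1 KO the order was the same down to Cxcl10, Cxcl5 came before Cxcl14, and Cxcl9 lay below all values of Cxcl2.

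Cxcl12, the ligand that retains Cxcr4-bearing cells in bone marrow and guides vessel growth, was the most abundant of the 9 (ENSMUSG00000061353, chr6:117168535-117181367, plus strand, GRCm38). It measured 90.8, 90.7, 99.4 and 106.2 FPKM in WT libraries 1 to 4 against 46.7, 73.8, 53.2 and 102.7 FPKM in LRP1 KO libraries 1 to 4. LRP1 KO libraries 1 to 3 lay below every WT library, and library 4 lay among them. The means were 96.8 ± 7.46 FPKM in WT against 69.1 ± 25.2 FPKM in LRP1 KO, a log2 fold change of -0.54 (SE 0.21, 95% CI -1.02 to -0.07) that missed the threshold with a limma adjusted p of 0.106. Without LRP1 KO library 4 the estimate was -0.755 and passed with an adjusted p of 0.00614. Over all alternatives the adjusted p of Cxcl12 ran from 0.00614 to 0.918. Without that library 3 of the 5 tested chemokines were lower, Cxcl10, Cxcl12 and Cxcl16, beside 13.9% of the 11297 genes then tested.

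The RefSeq promoter table (GRCm38.p6) held 7 of the 9 genes, all but Cxcl5 and Cxcl16. Each stretch printed is the 250 bases before the RefSeq start of the gene, read 5′ to 3′ on the strand of the gene. That start lies inside the gene as GENCODE places it for Cxcl1, Cxcl2 and Cx3cl1, whose windows reach 4, 28 and 171 bases into it, and it is the GENCODE start for the other 4. Both strands were searched for a GC box (GGGCGG), a kappaB-like motif (GGGANNNNCC), an interferon-stimulated response element core (GAAANNGAAA) and a FoxO motif (GTAAACA), which were found in 32.7%, 17.6%, 2.98% and 3.17% of all 32851 promoters. A match is a description of these letters and not a binding site. The FoxO motif was in none of the 7 windows. The promoter of Cxcl12 (chr6:117168285-117168534, plus strand) is shown because it differs in its motifs from the inducible members printed further on. Capitals mark its 5 GC box matches, which begin 187, 86, 33, 16 and 11 bases before the start, the last 2 sharing a base, and it held no kappaB-like or interferon motif.
Cxcl12: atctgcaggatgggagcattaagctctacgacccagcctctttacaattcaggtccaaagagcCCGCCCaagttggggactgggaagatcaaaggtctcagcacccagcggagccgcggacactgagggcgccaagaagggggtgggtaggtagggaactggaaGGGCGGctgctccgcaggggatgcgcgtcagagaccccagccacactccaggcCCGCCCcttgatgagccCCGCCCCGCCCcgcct

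Cxcl14, a ligand made by epithelia and fibroblasts, was below the filter (ENSMUSG00000021508, chr13:56288643-56296551, minus strand). It measured 0.623, 0.308, 0.368 and 0.440 FPKM in WT against 0.285, 0.454, 0.544 and 0.537 FPKM in LRP1 KO. The groups overlapped, with an exact two-sided permutation p of 0.83.

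Cxcl16, a scavenger receptor for oxidized lipid as well as a chemokine, fell in LRP1 KO (ENSMUSG00000018920, chr11:70453983-70459984, minus strand). It measured 59.1, 57.2, 44.8 and 45.1 FPKM in WT libraries 1 to 4 against 26.8, 28.0, 24.7 and 39.1 FPKM in LRP1 KO libraries 1 to 4. Every LRP1 KO library lay below every WT library, as it did for 10.7% of all tested genes (19.6% were without overlap in either direction), and library 4 was again the nearest to WT. The mean went from 51.5 ± 7.65 to 29.6 ± 6.43 FPKM, or 57.5% of WT, a log2 fold change of -0.79 (SE 0.15, 95% CI -1.12 to -0.46, limma adjusted p 0.0129). The call held when any 1 library was left out, with estimates from -0.924 to -0.71. It was lost when a marker score was added to the fit, at -0.495 with the endothelial score (adjusted p 0.285), -0.617 with the fibroblast score (adjusted p 0.182) and -1.15 with the macrophage score (adjusted p 0.19), and over all alternatives its adjusted p ran from 0.00103 to 0.285. Of the 3021 exonic bases of Cxcl16, 552 overlap Zmynd15 on the other strand, whose mean went from 4.12 ± 0.686 to 2.63 ± 0.275 FPKM (adjusted p 0.0215). The strand protocol is not stated, so reads in that overlap cannot be assigned to either gene with certainty.

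Cx3cl1, or fractalkine, the only CX3C chemokine, was low and did not pass the test (ENSMUSG00000031778, chr8:94772009-94782427, plus strand). It measured 5.02, 2.35, 3.01 and 4.74 FPKM in WT against 4.33, 4.21, 4.06 and 4.0 FPKM in LRP1 KO. The 4 LRP1 KO values sat close together inside the wider range of WT. The log2 fold change was 0.15 (SE 0.17, 95% CI -0.24 to 0.54, adjusted p 0.577), so a change of 2-fold on this scale lay outside the interval. The within-library ratio of Cxcl12 to Cx3cl1, on the log2(FPKM + 1) scale, was 4.39 ± 0.388 in WT and 3.70 ± 0.531 in LRP1 KO, with an exact permutation p of 0.114 (0.229 adjusted over 2 ratios). The ratio of Cxcl12 to Cxcl16, added after the values were seen, was 0.905 ± 0.314 in WT and higher by 0.244 in LRP1 KO (SD there 0.283), with an exact permutation p of 0.257 (0.257 adjusted), and leaving out 1 library moved that difference between 0.147, without WT library 1, and 0.368, without LRP1 KO library 1. Neither ratio showed that one ligand moved differently from the other.

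The enzymes that release or trim these ligands were counted together with regulators of release as a list of 6, all tested, with a median log2 fold change of 0.07. The 1 called higher was Timp3 and the 1 called lower was Adam17, beside 6.27% of all tested genes higher and 7.31% lower. Adam17, a sheddase of Cxcl16 and Cx3cl1, fell from 21.8 ± 1.70 to 16.3 ± 1.72 FPKM (log2 fold change -0.40, SE 0.08, adjusted p 0.0193), with no overlap between groups. The call of Adam17 was lost in 4 of 8 fits that left out 1 library (adjusted p up to 0.0615), though its estimate over the 8 stayed between -0.465 and -0.352. It was also lost with the macrophage score at -0.625 (adjusted p 0.206), the endothelial score at -0.249 (0.425) and the fibroblast score at -0.254 (0.263). Timp3, an inhibitor of such metalloproteases, rose from 318.7 ± 29.7 to 401.5 ± 1.08 FPKM (log2 fold change 0.34, SE 0.07, adjusted p 0.0183). The LRP1 KO values of Timp3 were 400.57, 402.45, 400.57 and 402.45 FPKM, and Acta2 in WT library 3 also held 402.45 FPKM. Quantile normalization gives libraries the same values by rank, so this small SD need not be the measured spread of Timp3. Its call was lost without LRP1 KO library 1 (adjusted p 0.0545), 2 (0.059) or 3 (0.0537) and with the same 3 scores (0.412, 0.209 and 0.155), while its estimate hardly moved, at 0.321 with the macrophage, 0.348 with the endothelial and 0.335 with the fibroblast score. Adam10, the other main sheddase of both ligands, had means of 32.7 ± 6.62 and 37.0 ± 3.68 FPKM (adjusted p 0.345).

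**Figure D2:**
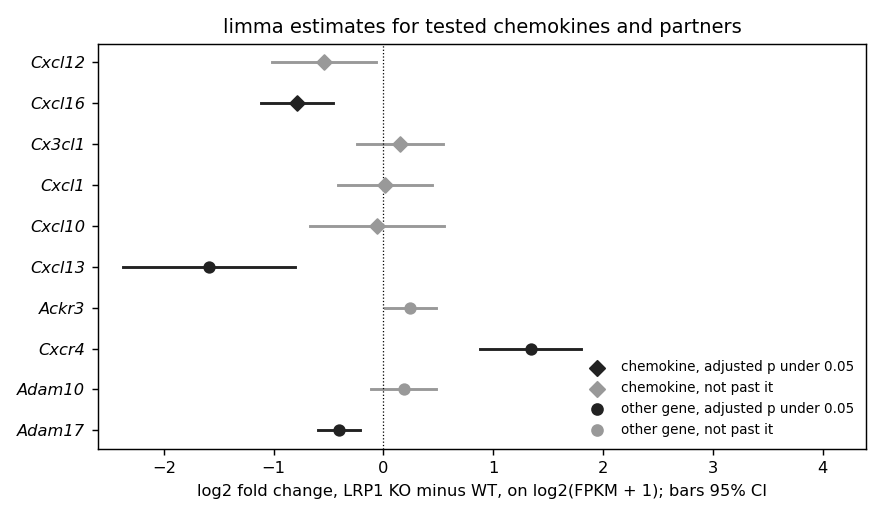
Log2 fold change of LRP1 KO against WT with its 95% confidence interval from limma for the 5 tested chemokines (diamonds) and for Cxcl13, Ackr3, Cxcr4, Adam10 and Adam17 (circles), in black where the adjusted p was under 0.05 (n = 4 each). Among the 5 chemokines only Cxcl16 is black, at -0.79, while the intervals of Cxcl1, Cxcl10 and Cx3cl1 span 0.

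The neutrophil-attracting chemokines Cxcl1, Cxcl2 and Cxcl5 lie close together on chromosome 5. Cxcl1 (ENSMUSG00000029380, chr5:90891241-90893115, plus strand) measured 5.72, 6.01, 3.0 and 3.45 FPKM in WT against 4.66, 5.14, 4.52 and 3.56 FPKM in LRP1 KO. All LRP1 KO values fell inside the WT range, and the log2 fold change was 0.02 (SE 0.19, 95% CI -0.41 to 0.44, adjusted p 0.965).

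Cxcl2 (ENSMUSG00000058427, chr5:90903871-90905938, plus strand) was below the filter at 0.20, 0.257, 0.131 and 0.0213 FPKM in WT against 0.720, 0.316, 0.462 and 0.315 FPKM in LRP1 KO. All 4 LRP1 KO values exceeded all 4 WT values, with means of 0.453 ± 0.191 and 0.152 ± 0.101 FPKM and an exact two-sided permutation p of 0.0286, the smallest that 4 against 4 libraries allow and not adjusted for the 4 chemokines tested this way. With no filter, limma gave Cxcl2 an adjusted p of 0.0868. All its values stayed under 1 FPKM, and 3.37% of its 50-base stretches also occur in its neighbour Cxcl3.

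Cxcl5 (ENSMUSG00000029371, chr5:90759360-90761624, plus strand) measured 0.261, 0.247, 0.560 and 0.245 FPKM in WT against 1.64, 0.526, 1.34 and 0.357 FPKM in LRP1 KO. Libraries 1 and 3 of LRP1 KO were the only ones above 1 FPKM, the other 2 overlapped WT, and the exact permutation p was 0.0857. Of the neutrophil markers, 3 of 10 were at 0 in all 8 libraries, and their sum was 0.531 to 1.64 FPKM in WT against 1.26 to 4.01 FPKM in LRP1 KO.

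The promoter of Cxcl1 (chr5:90890995-90891244, plus strand) is printed because this gene is a standard target of NF-kB. Capitals mark its kappaB-like matches, which begin 90, 71 and 70 bases before the start, the last 2 being overlapping matches on opposite strands. Cxcl2 held the same overlapping pair at 97 and 96 bases, and Cxcl9 held a kappaB-like match at 130 bases.
Cxcl1: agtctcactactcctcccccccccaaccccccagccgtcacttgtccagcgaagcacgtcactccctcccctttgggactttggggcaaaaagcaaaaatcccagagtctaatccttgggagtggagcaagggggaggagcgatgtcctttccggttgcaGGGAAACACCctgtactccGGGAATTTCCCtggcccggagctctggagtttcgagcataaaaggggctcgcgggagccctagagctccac

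Of 18 genes of the NF-kB arm, which drives Cxcl1, Cxcl2 and Cxcl5 after IL-1, TNF or Toll-like receptor signals, 17 were tested. Only Il1r1, the IL-1 receptor, passed, with a log2 fold change of 0.38 (SE 0.11, adjusted p 0.0499), against 13.6% of all tested genes in either direction. This borderline call was lost in 7 of 8 fits that left out 1 library (adjusted p up to 0.122) and, of these 8, held only in the one without WT library 4. It was lost as well with the other pseudocount and the other filters at estimates of 0.377 to 0.397, and with the endothelial (0.455), fibroblast (0.444) and macrophage (0.177) scores. The median log2 fold change of the 17 was 0.00164. Without LRP1 KO library 4, 0 of the 17 were higher and 3 were lower, namely Nfkb2, Relb and Tnfrsf1a. In that fit 13.9% of all 11297 tested genes were lower, so the count of 3 is near the background.

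Cxcl10 is the interferon-induced member that was readily measured (ENSMUSG00000034855, chr5:92346638-92348889, minus strand). It measured 4.09, 3.74, 3.13 and 2.99 FPKM in WT against 2.67, 2.64, 2.09 and 7.25 FPKM in LRP1 KO. LRP1 KO libraries 1 to 3 lay below every WT library and library 4 above every one. The means of 3.49 ± 0.517 and 3.66 ± 2.40 FPKM gave a log2 fold change of -0.06 (SE 0.27, 95% CI -0.66 to 0.55, adjusted p 0.910). Without LRP1 KO library 4 it was -0.369 with an adjusted p of 0.0433, so that this 1 library decided the call. Of its 2252 exonic bases, 133 overlap Art3 on the other strand, whose mean went from 54.9 ± 5.55 to 30.5 ± 11.3 FPKM (adjusted p 0.0247), and which was thus far more abundant than Cxcl10.

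Cxcl9 (ENSMUSG00000029417, chr5:92321347-92328079, minus strand) was barely detected. It measured 0.0244, 0.0328, 0.0336 and 0.00362 FPKM in WT against 0.00168, 0.00266, 0.0237 and 0.0171 FPKM in LRP1 KO. The groups overlapped, with an exact permutation p of 0.171. Cxcl9 depends on interferon gamma, and Ifng was listed at 0 in all 8 libraries. Lymphocyte markers, which mark the cells that Cxcl9 and Cxcl10 attract, summed to 0.0340 to 0.335 FPKM in WT against 0.0596 to 0.264 FPKM in LRP1 KO, and 7 of 12 were at 0 throughout.

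The promoter of Cxcl10 (chr5:92348890-92349139, minus strand) is shown because it alone of the 7 held both an interferon motif and kappaB-like motifs. Capitals mark the interferon-stimulated response element core, which begins 213 bases before the start, and kappaB-like matches at 159 and 103 bases. Cxcl14 held an interferon motif at 172 bases.
Cxcl10: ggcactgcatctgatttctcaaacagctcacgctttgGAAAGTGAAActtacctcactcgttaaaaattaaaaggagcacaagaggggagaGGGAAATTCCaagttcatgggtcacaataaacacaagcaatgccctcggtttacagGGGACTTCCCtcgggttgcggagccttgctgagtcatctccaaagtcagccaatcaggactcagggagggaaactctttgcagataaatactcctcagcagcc

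Of 15 genes of the interferon arm, 14 were measured and 11 tested, of which 3 rose and 0 fell, with a median log2 fold change of -0.00205. Irf7, a master regulator of type I interferon genes, rose from 12.2 ± 1.81 to 40.6 ± 8.96 FPKM (log2 fold change 1.63, SE 0.16, adjusted p 0.000628). Irf9 and Stat2, which take part in the response to type I interferon, rose by 0.54 (SE 0.08, adjusted p 0.00493) and 0.55 (SE 0.11, adjusted p 0.0148) on the log2 scale. The macrophage marker sum was higher in the same libraries, without overlap between the groups, and with the macrophage score in the fit none of the 3 was called, at 1.71 for Irf7 (SE 0.453, adjusted p 0.156), 0.486 for Irf9 (SE 0.233, adjusted p 0.29) and 0.288 for Stat2 (SE 0.297, adjusted p 0.616). The estimates of Irf7 and Irf9 thus stayed near those without the score while their SE grew, and that of Stat2 was smaller. With the endothelial or fibroblast score all 3 stayed called. Stat2 was also lost without LRP1 KO library 2 (adjusted p 0.0531). Irf1, an interferon gamma response factor, had means of 12.5 ± 2.07 and 9.89 ± 1.66 FPKM (adjusted p 0.133). Without LRP1 KO library 4 these 3 genes were again higher, and Ifnar2, a subunit of the type I interferon receptor, was lower, as were 13.9% of all genes then tested. Cxcl10 did not pass the test while these 3 genes did, and whether its change differs from theirs was not tested.

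**Figure D3:**
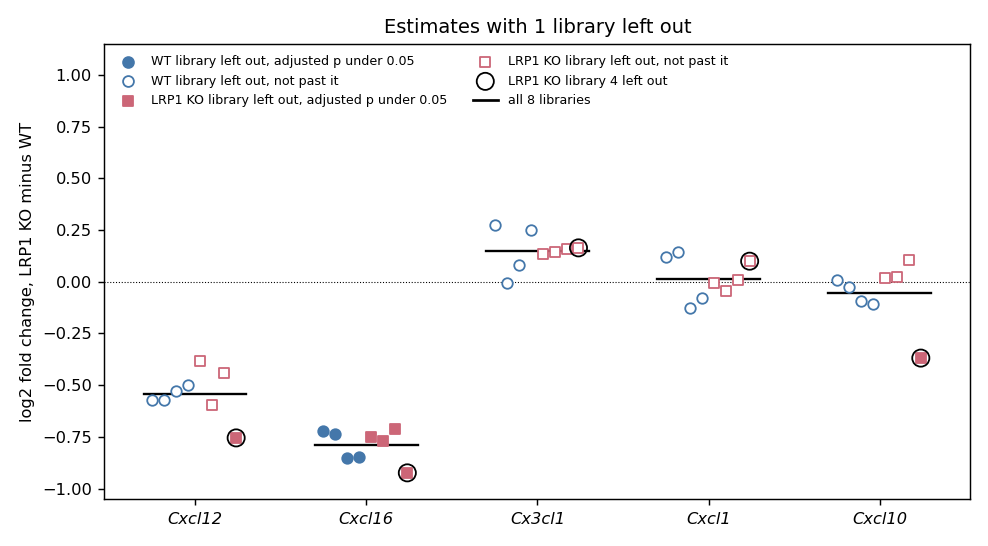
Log2 fold change of each tested chemokine with all 8 libraries and with each library left out in turn (line and symbols), filled where the limma adjusted p was under 0.05 and ringed where LRP1 KO library 4 was left out. Cxcl16 stays called throughout, and Cxcl10 and Cxcl12 are called only without LRP1 KO library 4, at -0.369 and -0.755.

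The marker scores moved with both abundant chemokines. A score is the mean log2(FPKM + 1) over the markers of a list that passed the filter (16 endothelial, 12 fibroblast and 12 macrophage genes), and the following correlations are descriptions over 8 libraries that share the group difference. Cxcl12 had a Pearson r of -0.98 with the endothelial score and 0.94 with the fibroblast score, and -0.43 with the macrophage score. Cxcl16 had -0.85, 0.74 and -0.76 with the same 3 scores. Among LRP1 KO libraries, Cxcl12 was highest in library 4, then 2, 3 and 1, the reverse of the order of the endothelial score (2.94, 3.80, 4.09 and 4.48). With the endothelial score in the fit, the estimate of Cxcl12 was 0.0738 (adjusted p 0.85). With the fibroblast score it was -0.0433 (adjusted p 0.918), and with the macrophage score it went the other way to -1.64 (adjusted p 0.158). The part of cell composition in the levels of Cxcl12 and Cxcl16 was not tested beyond these fits.

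**Figure D4:**
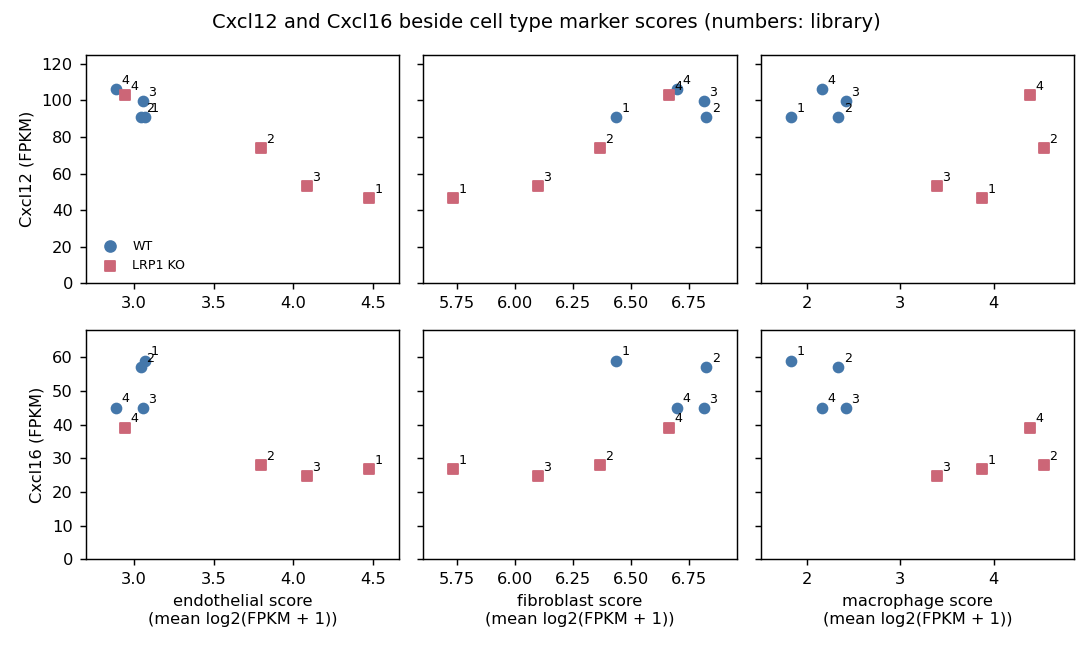
FPKM of Cxcl12 (top) and Cxcl16 (bottom) against the endothelial, fibroblast and macrophage marker scores in each library, with circles for WT, squares for LRP1 KO and the library number beside each point. Cxcl12 falls as the endothelial score rises (r = -0.98), and LRP1 KO library 4 lies with the WT libraries on the endothelial and fibroblast scores.

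Other lists were counted in the same way, beside 6.27% of all tested genes called higher and 7.31% called lower. Of the 18 macrophage markers 12 were tested and 10 of these were higher, but Adgre1 (at most 0.475 FPKM in WT) and Mrc1 (at most 0.657 FPKM in WT) passed the filter through LRP1 KO alone and so had to differ. Of the mural markers 4 of 8 were higher (summed FPKM 670 to 836 in WT and 1040 to 1627 in LRP1 KO), and of the endothelial markers 1 of 16 was higher. Of the fibroblast markers 2 of 12 were called lower, while 11 of the 12 had lower estimates, with a median log2 fold change of -0.278. Hepatocyte markers summed to 828 to 975 FPKM in WT against 335 to 609 FPKM in LRP1 KO, but Trf, the transferrin gene, alone gave 816 to 964 FPKM and 313 to 597 FPKM of these. The albumin gene Alb reached at most 0.108 FPKM and Cyp3a11 was listed at 0 in all 8 libraries. Of the 2 tested hepatocyte genes Trf was lower and Ahsg higher. Lung epithelial markers (4.14 to 7.5 FPKM in WT, 3.63 to 6.87 FPKM in LRP1 KO) had 1 of 2 lower. The 1 tested neutrophil marker, S100a8, was higher, at 1.48, 0.382, 0.400 and 0.985 FPKM in WT against 2.23, 3.22, 1.11 and 3.53 FPKM in LRP1 KO. The groups overlapped, and S100a8 passed the filter through its LRP1 KO values, so this call carries little weight. Cardiomyocyte (101 to 155 and 87.8 to 123 FPKM) and lymphatic endothelial (213 to 266 and 213 to 259 FPKM) markers had 0 called. Tnnt2 gave 95.5 to 152 FPKM of the cardiomyocyte sum in WT, where Myh6 was at most 0.414 FPKM, and Pdpn gave 197 to 251 FPKM of the lymphatic sum in WT, where Prox1 was at most 0.864 FPKM. In LRP1 KO Tnnt2 was 81.6 to 109 FPKM, and Myh6, which was below the filter, was 0.646 to 1.51 FPKM, above all WT values (exact permutation p 0.0286). Platelet markers (1.28 to 1.91 and 1.66 to 2.36 FPKM) had none tested.

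Among 7 other CXC ligands, 6 were measured and 1 was tested. This was Cxcl13, the attractant of B cells made by stromal cells, which measured 297, 325, 295 and 224 FPKM in WT against 52.9, 86.9, 77.8 and 209 FPKM in LRP1 KO. It was thus more abundant than Cxcl12 in WT, and all LRP1 KO libraries lay below all WT libraries. The mean fell from 285.1 ± 43.4 to 106.6 ± 69.7 FPKM (log2 fold change -1.59, SE 0.35, adjusted p 0.0218), but the call was lost with each of the 3 marker scores, with no filter on low values (-1.59, adjusted p 0.0514) and in 6 of 8 fits that left out 1 library, and it was -1.98 (adjusted p 0.000387) without LRP1 KO library 4. In the 6 fits that lost the call the estimate was -1.57 to -1.32, and with the scores it was -2.83 (macrophage), -0.614 (endothelial) and -0.803 (fibroblast). Pf4, a platelet chemokine, measured 0.699, 0.725, 0.696 and 0.623 FPKM in WT against 0.825, 2.75, 1.11 and 1.71 FPKM in LRP1 KO (exact permutation p 0.0286). Ppbp and Cxcl15 were listed at 0 in all 8 libraries.

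All 9 receptors of these ligands were measured, and 2 were tested. Cxcr4, the receptor of Cxcl12, measured 1.29, 1.73, 1.54 and 0.969 FPKM in WT against 7.78, 4.71, 5.18 and 3.15 FPKM in LRP1 KO. The lowest LRP1 KO value, in library 4, was above the highest WT value. The mean rose from 1.38 ± 0.330 to 5.21 ± 1.92 FPKM, a log2 fold change of 1.34 (SE 0.21, 95% CI 0.88 to 1.80, adjusted p 0.00583) that held without any 1 library and with the endothelial score (0.788, adjusted p 0.0425). The call was lost with the macrophage score at a larger estimate of 1.82 (SE 0.572, adjusted p 0.168) and with the fibroblast score at 0.948 (adjusted p 0.0616). Ackr3, the scavenging receptor of Cxcl12, had means of 4.39 ± 0.259 and 5.43 ± 0.949 FPKM (log2 fold change 0.24, SE 0.10, adjusted p 0.134).

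The leukocyte receptors were near 0. Cxcr1 was 0.0332, 0.150, 0.0611 and 0 FPKM in WT against 0.433, 0.317, 0.250 and 0.689 FPKM in LRP1 KO, without overlap (exact permutation p 0.0286). Cxcr2, which binds Cxcl1, Cxcl2 and Cxcl5, had means of 0.0761 and 0.0813 FPKM (exact permutation p 0.886). Cxcr6, the receptor of Cxcl16, had means of 0.0347 and 0.0403 FPKM (exact permutation p 0.971), and Cx3cr1, the receptor of Cx3cl1, reached at most 0.0156 FPKM. Cxcr3, the receptor of Cxcl9 and Cxcl10, reached at most 0.0200 FPKM and Cxcr5, the receptor of Cxcl13, at most 0.0379 FPKM. Ackr1, the chemokine-binding receptor of venules, had means of 0.514 ± 0.309 and 0.404 ± 0.132 FPKM (exact permutation p 0.6). Of the 9 receptors, only Cxcr4 and Ackr3 reached 1 FPKM in any library.

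**Figure D5:**
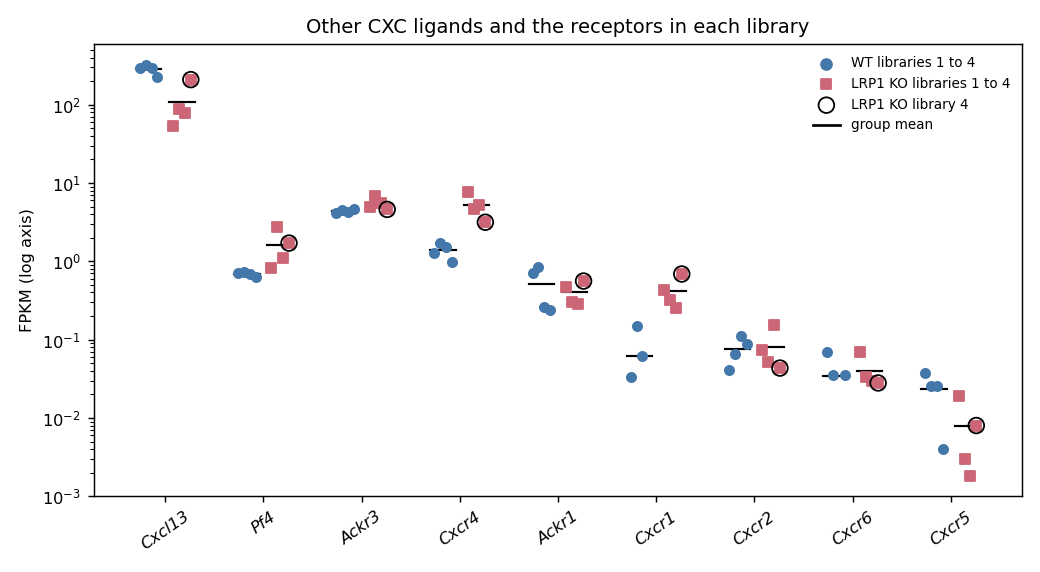
FPKM of Cxcl13, Pf4 and 7 receptors in each library on a log axis, with circles for WT, squares for LRP1 KO, a ring around LRP1 KO library 4 and a bar at each group mean. Libraries in which a gene is listed at 0 are not drawn, and Cxcr4 lies at 3.15 to 7.78 FPKM in LRP1 KO, above all WT values.

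The genes whose log2(FPKM + 1) followed each chemokine most closely over the 8 libraries were ranked by Pearson r. For Cxcl12 they were the metalloproteases Mmp19 (0.990) and Mmp8 (0.989) and the matrix protein Mgp (0.983). For Cxcl16 they were Ttc7 (0.995), Slc9a3r1 (0.994) and Ctxn1 (0.994). For Cx3cl1 they were Clcf1 (0.981), Dlgap5 (0.970) and Praf2 (0.964), for Cxcl1 Tnnt1 (0.959), Tpr (0.958) and Sharpin (0.958), and for Cxcl10 Ero1lb (0.940), Rps7 (0.939) and Por (0.935). These are the highest of all 11389 tested genes over 8 libraries that share the group difference. Between the chemokines themselves, Cxcl12 and Cxcl16 had an r of 0.78.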

How the data were processed

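RNA sequencing of 8 EC libraries was used, grouped by sample title into 4 WT and 4 LRP1 KO. The authors deposited 1 table of FPKM values, quantile normalized across libraries: sums per library were 503571 to 504112, the highest value was 7793 in each, and sorted values differed between libraries by a median of 0.574%. The unit is inferred from the values, and sequencing depth is unknown, so precision rests on the spread between libraries. The submitters' processing notes name TopHat2, Cufflinks and mm10, whereas the study's methods describe STAR, featureCounts and edgeR. Whether the libraries kept strand is not stated.

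From the FPKM values, log2(FPKM + 1) was tested with limma 3.58.1 in R 4.3.3, with a trended prior variance, in genes with at least 1 in at least 4 libraries (11389 of 22520). P-values were adjusted by Benjamini-Hochberg over all tested genes and called under 0.05. Genes below the filter and ratios had an exact two-sided permutation test over 70 assignments, whose smallest p is 0.0286. The script was tested on simulated data. Positions are from GENCODE M21 (GRCm38), matched for 21740 identifiers. Alternatives were the pseudocount, the filter, rescaling, a replicate block, marker score covariates and leaving out each library, and a fibroblast score and the ratio of Cxcl12 to Cxcl16 were added after seeing the data.

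The members and lists were chosen with earlier results of these data known. A gene of the interferon list is not reported here and was left out of its counts. All members were named, from each pathway list up to 4 called genes, every receptor, and the 3 tested genes most like each member. Zmynd15 and Art3 were named for their overlap with members. Pecam1, Prox1, Alb, Myh6, Adam10, Irf1, Pf4, genes listed at 0 and the genes called only without LRP1 KO library 4 were named after their values were seen.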

Additional observations from a re-analysis of the deposited data

Results flagged for a closer look

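Of 94 groups of 4 libraries, 7 held a library far from the other 3, where chance flags about 1 in 20 groups. Among the chemokines, Cxcl10 was 7.25 FPKM in LRP1 KO library 4 against 2.09 to 2.67 FPKM in the other 3, and Cxcl5 was 0.56 FPKM in WT library 3 against 0.245 to 0.261 FPKM. Among the other genes, Stat2 was 20.9 FPKM in LRP1 KO library 1, against 28.0 to 29.0 FPKM in the other 3. The remaining 4 were genes close to 0. Cxcl3 was 0.0357 FPKM in WT library 2, Cxcr3 0.0102 FPKM in WT library 4 and Cx3cr1 0.0109 FPKM in WT library 1, each listed at 0 in the other 3 WT libraries. Cxcr6 was 0.0702 FPKM in LRP1 KO library 1 against 0.028 to 0.0334 FPKM. The causes were not tested.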

How the results depend on the processing

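No chemokine was higher, and none passed the adjusted p with a 2-fold change, under any alternative run. The count of lower chemokines, 1 with all libraries, was 0 with the macrophage, endothelial or fibroblast score as a covariate and 1 to 3 when 1 library was left out, 3 being without LRP1 KO library 4. The number of genes past the adjusted p, 1547 with all libraries, was 6 with the macrophage, 161 with the endothelial and 196 with the fibroblast score, and 433 to 2959 with 1 library left out. The scores differ between the groups, and the macrophage score raised the median SE from 0.0880 to 0.244. With the replicate block 1013 genes passed and no chemokine's call changed. Of the 9 pathway genes examined across settings, only Il1r1 lost its call with the block (adjusted p 0.0763). Deviations of same-numbered libraries had correlations of 0.158, 0.141, 0.34 and -0.312. For numbers 1, 2 and 3 the WT library most like the LRP1 KO library was the one of the same number, and for number 4 it was not. The main fit did not take the numbers as pairs, and these values do not settle whether they are.

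Signs reversed for 4 of the 5 tested chemokines, all but Cxcl16. Cxcl1 was -0.178 with the endothelial and -0.156 with the fibroblast score and -0.127 to 0.142 with 1 library left out. Cxcl10 was 0.615 and 0.365 with these scores and -0.369 to 0.103 with 1 library left out, Cxcl12 was 0.0738 with the endothelial score, and Cx3cl1 was -0.0362 with the fibroblast score and -0.00687 to 0.275 with 1 library left out. Among genes below the filter, the pseudocount of 0.1 moved the log2 difference of Cxcl2 to 1.18, of Cxcl5 to 1.16 and of Cxcl9 to -0.149. The causes were not tested. The planned ratios of Cxcl9 to Cxcl10 and Cxcl1 to Cxcl2 were not run, since Cxcl9 and Cxcl2 were below the filter. Depth is unknown, so values near 0 carry an unknown counting error.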

Other observations

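Within WT, libraries 1 and 2 lay above libraries 3 and 4 for Cxcl1 (5.72 and 6.01 against 3.0 and 3.45 FPKM), Cxcl2 (0.20 and 0.257 against 0.131 and 0.0213 FPKM), Cxcl10 (4.09 and 3.74 against 3.13 and 2.99 FPKM) and Cxcl16 (59.1 and 57.2 against 44.8 and 45.1 FPKM). Cxcl12 had the opposite order, at 90.8 and 90.7 against 99.4 and 106.2 FPKM. This split was seen in the values and was not tested, and the labels give no batch that would divide the WT libraries this way.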
